A study of Homo sapiens with 9 samples.

Results

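Of the 9 arrays in the series, 3 stood apart from the other arrays of their own line in a shared direction: replicate 2 of the parental HaCaT line, replicate 1 of the WT-actin cells and replicate 2 of the NLS-actin cells, 1 array from each line. They were chosen by their log2 signals, which deviated together over all genes, so the values that chose them and every gene contrast of these 3 arrays with the other 6 are given as a description, without a test. HaCaT cells are human keratinocytes that became immortal spontaneously in culture. The parental cells carried no construct, WT-actin cells were a stable HaCaT line expressing EGFP-tagged actin, and NLS-actin cells were a stable line expressing EGFP-actin with a nuclear localization signal. Both constructs came from transfected plasmids followed by G418 selection of a GFP positive population, so that each construct is represented by 1 line. The study asked how actin in the nucleus alters gene expression and migration of keratinocytes, and RNA of each line was measured on 3 arrays. The sources call the arrays experimental replicates without saying whether each came from its own culture, so that a p-value measures only the spread between arrays, which may be technical. They give neither the cell density nor the time at harvest.

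Keratinocytes divide in the basal layer of the epidermis and switch on a differentiation programme as they leave it, first with early products such as KRT1 and involucrin and later with the proteins of the cornified envelope. In culture the same programme follows confluence and calcium, while sparse or spreading cells keep YAP and its TEAD partners in the nucleus, where they drive genes such as CCN1 and CCN2. Immediate early genes such as FOS, JUN and EGR1 answer growth factors within minutes, and interferon-induced genes are held under the ISGF3 complex and interferon regulatory factors.

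For each gene the difference is the log2 signal of the deviating array minus the mean of the other 2 arrays of its line, averaged over the 3 lines with its SD over lines (n = 3 lines). A gene is called apart when the deviating array lies beyond both other arrays of its line in all 3 lines and in the same direction. Genes were represented by their brightest probe set, and a gene is called dim when its mean signal lies under the median level of genes, a signal of 146. Differences of dim genes are the least certain, since the deposited signals go down to values near 0.

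The arrays had been scaled alike, with trimmed means between 500.04 and 500.06, and precision is limited by having 3 arrays per line. Their median signals ran from 29.7 to 43.3, with 42.9 on parental 2, 33.3 on WT-actin 1 and 43.3 on NLS-actin 2. The 2 brightest medians were therefore those of deviating arrays, while WT-actin 1 lay between the other arrays of its line, at 32.8 and 33.8. The label of a keratinocyte line was borne out on all arrays, with KRT5, KRT14 and SFN at the 99.1, 99.4 and 99.9 percentiles of signal. None of the 5 melanocyte, 6 immune or 5 endothelial markers reached the median level. Of 8 fibroblast markers only COL1A1 did, and COL1A1 was itself higher in the deviating arrays, at 794 to 1057 against 284 to 651. The summed signal of the fibroblast list was 973 to 1219 on the deviating arrays against 318 to 867 on the others, with COL1A2, DCN, PDGFRA and THY1 dim. The dim LUM (2.27), VWF (2.05) and PMEL (0.90), of the fibroblast, endothelial and melanocyte lists, and the keratinocyte marker TRIM29 (0.30) were also higher on each deviating array than on both others of its line. The part of other cells in the state was not tested.

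Along the first axis of variation within lines, which held 57.9 percent of the variance of genes above the median level, the deviating arrays scored 0.226 (parental 2), 0.304 (WT-actin 1) and 0.334 (NLS-actin 2). The other 6 arrays scored between -0.231 and -0.051. No deviating array overlapped the others, while the remaining 6 were themselves spread, with parental 1 and WT-actin 2 nearer to the deviating arrays than parental 3 and WT-actin 3. The second axis held 19.6 percent.

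**Figure D1:**
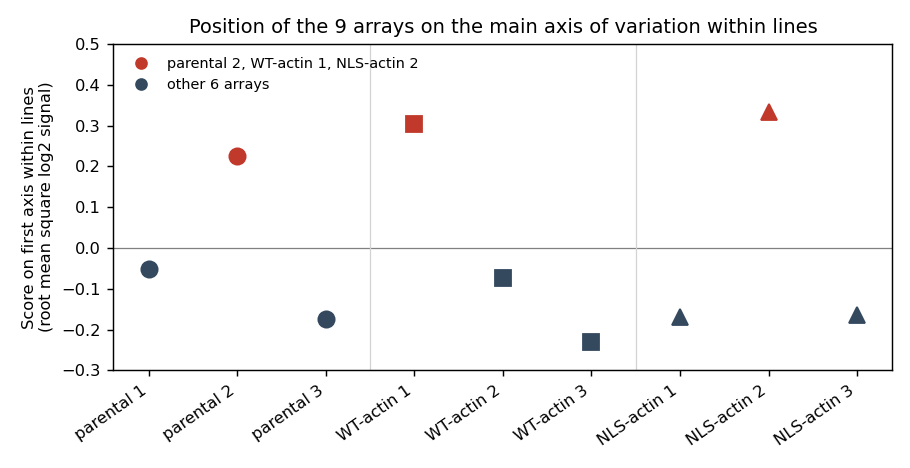
Score of each of the 9 arrays on the first axis of variation within lines, in root mean square log2 signal after centring each line; circles are parental, squares WT-actin and triangles NLS-actin arrays. The 3 deviating arrays, in red, sit between 0.226 and 0.334 and the other 6 lie below 0.

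The extent of the departure differed between lines. Over the 9887 genes above the median level the SD of the difference was 0.40 in the parental line, 0.523 in the WT-actin line and 0.555 in the NLS-actin line. In the parental line 192 of these genes were at least 2-fold higher and 91 at least 2-fold lower on the deviating array, compared to 357 and 217 in the WT-actin line and 469 and 203 in the NLS-actin line. The differences of separate lines, which share no array, correlated across these genes with r of 0.791 for parental and NLS-actin, 0.599 for WT-actin and NLS-actin, and 0.588 for parental and WT-actin. Across all 19775 genes, most of the added ones dim, r was 0.113 to 0.168. Genes are not independent replicates, and the arrays were chosen for this likeness.

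**Figure D2:**
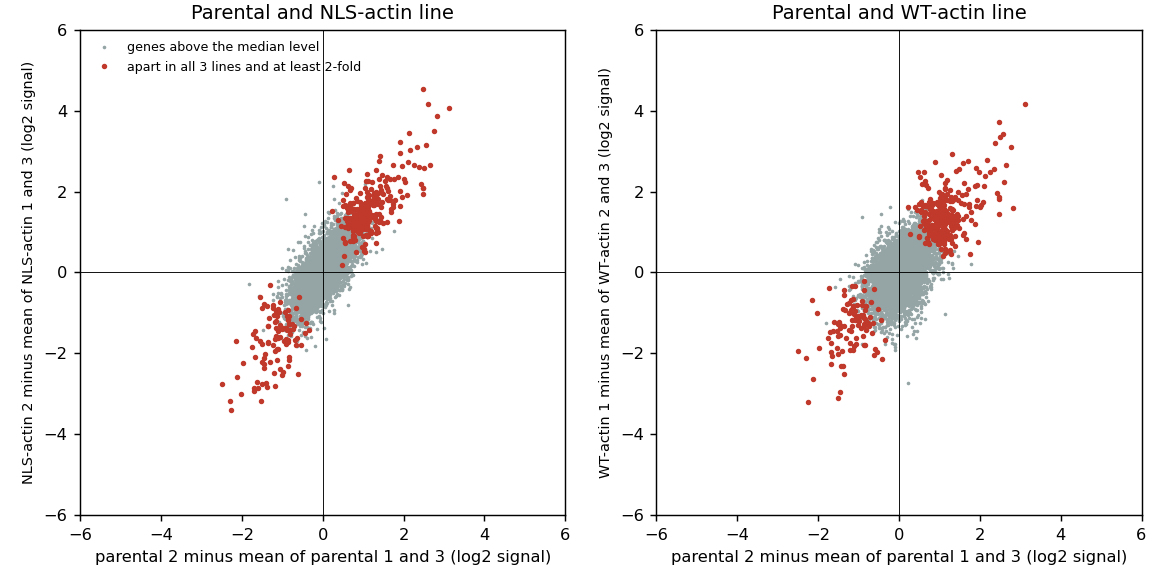
Difference of the deviating array from the mean of the other 2 arrays of its line, in log2 signal, for the parental line (x axis) against the NLS-actin line (left) and the WT-actin line (right); each point is a gene above the median level. Red points, the genes apart in all 3 lines and at least 2-fold different, lie in the upper right and lower left of each panel, and the cloud is narrower on the left (r = 0.791) than on the right (r = 0.588).

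Genes that were at least 2-fold different in 2 lines were also read in the line left over. Of 209 genes higher in both actin lines, 207 were higher on parental 2, with a median difference of 1.05, and 65 of 65 genes lower in both actin lines were lower there, with a median of -1.06. Read in the WT-actin line, 159 of 162 were higher (median 1.39) and 62 of 62 lower (median -1.23). Read in the NLS-actin line, 126 of 126 were higher (median 1.79) and 48 of 48 lower (median -1.80). The 3 arrays were chosen because they deviate together, so these shares describe the choice and support nothing beyond it.

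Among the 19775 genes, 3065 (15.5 percent) were apart and higher and 1820 (9.2 percent) apart and lower. Of these, 1143 (5.78 percent of all genes) were at least 2-fold higher and 362 (1.83 percent) at least 2-fold lower. The share of higher genes among the 2-fold ones was 75.9 percent, but 63.0 percent after quantile normalization, when 846 were higher and 497 lower, so the excess of higher genes depends on the scaling. Above the median level, where signals are firmer, 1745 genes (17.6 percent of 9887) were apart and higher and 1442 (14.6 percent) lower, with 275 (2.78 percent) and 102 (1.03 percent) at least 2-fold. The median difference was 0.08 over all genes and 0.01 above the median level. Counts of list members are to be read against these shares of all genes. Leaving out parental 2 or WT-actin 1 asks separation in 2 lines only and raised the 2-fold counts to 1744 or 1875 higher and 822 or 718 lower, and leaving out NLS-actin 2 gave 694 lower.

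The 15 largest positive differences among genes above the median level ran from 2.36 to 3.78. POU2AF3, a coactivator of POU-domain factors, read 980 on parental 2 against 184 and 69.1, 1961 on WT-actin 1 against 229 and 52.8, and 1410 on NLS-actin 2 against 99.2 and 71.9. UCP2, a mitochondrial carrier, read 1108 against 246 and 159, 1019 against 74.6 and 79.3, and 2229 against 82.2 and 112 in the same order of lines. AGR2, a disulfide isomerase of secretory epithelia, read 3199 against 691 and 323, 3753 against 683 and 280, and 6849 against 574 and 649. The deviating arrays did not overlap the other 6 for any of these genes, with differences of 3.78 (SD 0.57), 3.58 (SD 1.03) and 3.12 (SD 0.36), or 13.7, 12 and 8.67 fold. The next were CYP4B1 (3.05), a cytochrome P450, DAPL1 (3.0), the methyltransferase TMT1A (2.81, although -0.02 without probe sets prone to cross-hybridization), the LY6 family member LYNX1 (2.76), the tight junction scaffold TJP3 (2.73), the death ligand TNFSF10 (2.67) and the tight junction protein CLDN8 (2.66). IFI27 (2.66), TP53INP1 (2.65), an inducer of autophagy and cell death, the aldehyde dehydrogenase ALDH3B2 (2.57), the sterol transfer protein GRAMD1C (2.46) and the sialyltransferase ST6GALNAC1 (2.36) completed this group. TNFSF10 moved alike on 3 of 3 probe sets above the median level and TJP3 on 2 of 2.

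The 15 largest negative differences ran from -2.95 to -1.99. NTM, a neural adhesion molecule, read 50.2 on parental 2 against 163 and 355, 45.6 on WT-actin 1 against 207 and 856, and 34.5 on NLS-actin 2 against 443 and 297, a difference of -2.95 (SD 0.61). THBS1, the matrix protein thrombospondin 1, read 1656 against 5020 and 5704, 1649 against 5210 and 5956, and 724 against 4766 and 5745. Each of the 3 deviating arrays lay below all 6 others for both genes. The difference of THBS1 was -2.10 (SD 0.65), negative on 5 of 5 probe sets above the median level. The actin-binding protein NEXN (-2.40), the heparan sulfate enzyme HS3ST2 (-2.45), the decoy receptor IL1R2 (-2.28), the protease inhibitor TFPI2 (-2.03), the carboxypeptidase CPA4 (-2.03), the IGF-binding protein protease PAPPA (-2.01) and the BMP antagonist NOG (-1.99) were also lower. C12orf54 (-2.53), PRR9 (-2.26), SH2D5 (-2.18), RIMS2 (-2.10), FOSL1 (-2.04) and the noncoding LINC02551 (-2.0, with its 2 probe sets above the median level in opposite directions) made up the rest. Of the 158 genes named by rule, 38 had more than 1 probe set above the median level, and in 34 of them all such probe sets moved the same way.

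Early differentiation genes were higher. Of 19 measured, 10 were apart and higher (7 of them at least 2-fold), against 15.5 percent of all genes, and 18 of 19 differences were positive. None was apart and lower, against 9.2 percent of all genes. The median was 0.76, at 0.82, 0.80 and 1.0 in the parental, WT-actin and NLS-actin lines. KRT1, the first suprabasal keratin, read 287 on parental 2 against 62.1 and 25, 197 on WT-actin 1 against 33.6 and 17.5, and 3305 on NLS-actin 2 against 371 and 265. Its deviating arrays were 8.54 fold higher than the others of their lines (3.10, SD 0.27) on a probe set that was dim over all arrays, and the NLS-actin line was so much higher in KRT1 that its ordinary arrays overlapped the deviating arrays of the other lines. TGM1, the transglutaminase that crosslinks the envelope, read 240, 104 and 590 on the deviating arrays against 14.2 to 144 on the others, a difference of 2.22 (SD 0.30), and was dim too. Of the 7 early differentiation genes apart and at least 2-fold higher, IVL and KRT13 were not dim.

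Involucrin (IVL), an early envelope precursor, read 3707 on parental 2 against 2182 and 1086, 3201 on WT-actin 1 against 1714 and 834, and 3628 on NLS-actin 2 against 917 and 1267 (1.48, SD 0.25). KRT13, a keratin of stratified mucosa and cultured keratinocytes, read 7851 against 3354 and 2473, 7288 against 4430 and 1606, and 7979 against 2660 and 2581 (1.5, SD 0.09). For IVL and KRT13 the deviating arrays lay close together and above all 6 others, whatever the construct. PRDM1 (1.54) and MAF (2.18), regulators of terminal differentiation, and the desmosomal cadherin DSC1 (2.69) were higher too but, like KRT1 and TGM1, dim. DSC1, at signals of at most 10.8, is not readable as a level. KRT10, the partner of KRT1, was not apart: its signal was 2782, 4393 and 2910 on the deviating arrays against 2142 to 3790 on the others, a difference of 0.26 (SD 0.30). KRT1 and KRT10 therefore departed by different amounts.

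Late differentiation was mixed. Of 32 genes of the cornified envelope and late differentiation, 7 were apart and higher (21.9 percent, against 15.5 percent of all genes) and 2 apart and lower (6.25 percent, against 9.2 percent), shares near those of all genes. The median was 0.37, and 0.19 among the members above the median level. SPRR1A, an envelope precursor, was higher by 1.52 (SD 0.67) and ELF3, an epithelial transcription factor that acts on such genes, by 1.47 (SD 0.30) on 3 of 3 probe sets. The lipoxygenase ALOX12B (2.55) and the transglutaminase TGM3 (2.01) were apart but dim, and TGM3, at signals of at most 11.1, is not readable as a level. Filaggrin (FLG), a protein of the granular layer, went the other way: 822 on parental 2 against 2202 and 1970, 1279 on WT-actin 1 against 2360 and 2517, and 1665 on NLS-actin 2 against 3756 and 3509. FLG was thus 2.19 fold lower on the deviating arrays (-1.13, SD 0.21), as was the protease inhibitor CST6 (-1.09, SD 0.28), while most other members named here were higher.

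Of 14 basal genes 2 were apart and higher (14.3 percent) and 1 apart and lower (7.14 percent), near the 15.5 and 9.2 percent of all genes, with a median of 0.01. The higher ones were KRT15 (1.17, SD 0.10), a keratin of quiescent basal cells, and KRT5 (0.38, SD 0.23). The lower was the matrix protein tenascin C (TNC), at 790, 828 and 654 on the deviating arrays against 1843 to 2531 on the others (-1.49, SD 0.24). Of 10 stress and wound genes, 4 were apart and higher (40 percent, against 15.5 percent of all genes) and none lower, with a median of 0.66. The 4 were the calprotectin subunits S100A8 (1.17) and S100A9 (1.05, dim), the siderophore-binding LCN2 (1.15) and the protease inhibitor SLPI (0.80). Of 5 simple epithelial keratins, KRT19 was higher (0.56) and KRT80 lower (-0.34). In the Notch pathway, which acts in keratinocyte differentiation, the median was 0.46. Of its 13 genes 6 were apart and higher (46.2 percent, against 15.5 percent of all genes) and 2 lower (15.4 percent, against 9.2 percent). The receptor NOTCH3 read 1534 on parental 2 against 495 and 503, 608 on WT-actin 1 against 447 and 211, and 2863 on NLS-actin 2 against 761 and 657 (1.54, SD 0.52). The Notch targets HEY1 (0.79) and NRARP (0.53) were higher and the ligand DLL1 lower (-0.63).

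**Figure D3:**
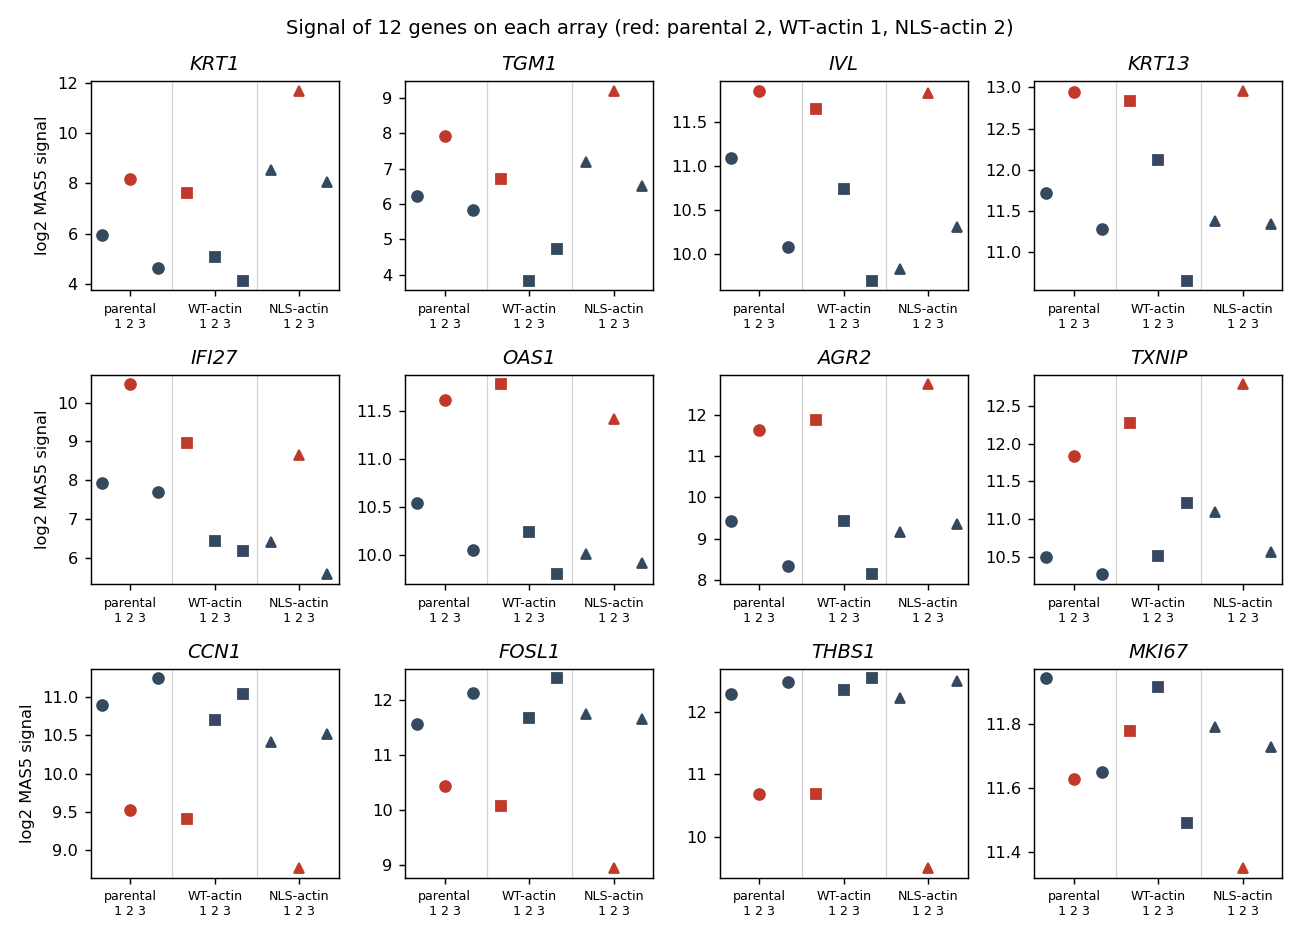
Log2 MAS5 signal of 12 genes on each of the 9 arrays, with replicates 1 to 3 from left to right in each line and the deviating arrays in red; each panel has its own axis. The 3 red points lie above the other arrays of their line for KRT1, TGM1, IVL, KRT13, IFI27, OAS1, AGR2 and TXNIP and below them for CCN1, FOSL1 and THBS1, while for MKI67 they do not lie beyond both others in all 3 lines.

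Interferon-induced genes were higher in part. Of 40 measured, 20 were apart and higher, 12 of them at least 2-fold, and 2 apart and lower, with a median of 0.40. These are 50 and 5 percent of the list, against 15.5 and 9.2 percent of all genes. The median was 0.84 in the WT-actin line, 0.44 in the parental line and 0.23 in the NLS-actin line, and over all lines it was 0.24 without WT-actin 1. Promoters of such genes are shown because many carry an interferon-stimulated response element. Capitals in the IFI27, IFI6 and IFI44L sequences mark matches, on either strand, to GAAA followed by any 2 bases and a further GAAA. The 250 bases lie directly before each start site, 5′ to 3′ on the gene's strand, from RefSeq annotation of GRCh38.p14: chr14:94110486-94110735 on the plus strand for IFI27, chr1:27672193-27672442 on the minus strand for IFI6 and chr1:78620198-78620447 on the plus strand for IFI44L.
IFI27: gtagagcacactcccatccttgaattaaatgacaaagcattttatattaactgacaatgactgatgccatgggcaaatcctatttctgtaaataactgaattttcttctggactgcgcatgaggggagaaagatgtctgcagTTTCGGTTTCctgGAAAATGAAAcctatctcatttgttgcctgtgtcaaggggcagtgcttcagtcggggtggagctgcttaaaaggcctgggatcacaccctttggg
IFI6: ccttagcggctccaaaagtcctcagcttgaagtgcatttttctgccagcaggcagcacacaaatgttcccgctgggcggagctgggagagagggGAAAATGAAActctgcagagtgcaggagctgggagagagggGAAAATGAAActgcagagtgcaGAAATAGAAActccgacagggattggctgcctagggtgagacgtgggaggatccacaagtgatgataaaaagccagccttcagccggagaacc
IFI44L: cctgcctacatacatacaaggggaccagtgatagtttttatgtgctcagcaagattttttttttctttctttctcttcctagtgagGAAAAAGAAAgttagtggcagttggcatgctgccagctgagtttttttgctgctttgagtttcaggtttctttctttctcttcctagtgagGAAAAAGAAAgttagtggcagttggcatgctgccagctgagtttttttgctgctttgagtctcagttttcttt
IFI27 held 2 matches, IFI6 3 and IFI44L 2. Such a match occurred in 3.07 percent of 27305 promoters of the same length and in 20 of 32 interferon-list genes with a listed promoter (62.5 percent). It was found in 9 of the 17 such genes that were apart and higher and in both that were apart and lower, HERC5 and IFIT5, so these letters did not separate the directions. Among all genes apart and at least 2-fold higher, 29 of 865 promoters (3.35 percent) held one.

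IFI27, a mitochondrial protein strongly induced by type I interferon, read 1418 on parental 2 against 245 and 206, 499 on WT-actin 1 against 87.1 and 72.1, and 404 on NLS-actin 2 against 85.5 and 47.6. The step was nearly equal in the 3 lines, 6.32 fold (2.66), although their base levels differed. OAS1, a sensor of double-stranded RNA, read 3141 against 1492 and 1062, 3518 against 1210 and 891, and 2734 against 1029 and 967 (1.51, SD 0.23). Its deviating arrays lay together above all 6 others. MX1, an antiviral GTPase, read 1098 against 803 and 717, 2480 against 571 and 416, and 370 against 264 and 296. It was apart in all 3 lines but by very different amounts (1.09, SD 1.09), most in WT-actin 1.

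The pro-apoptotic XAF1 (1.72, SD 0.93) was higher on 2 of 2 probe sets above the median level, and on 2 of all its 3. IFI6 (2.12), IFI44L (2.30) and BST2 (1.70) were higher but dim. Other members apart and higher included the transcription factors IRF9 (0.92) and IRF7 (0.83), OAS2 (1.09), IFI35 (1.14) and the membrane protein IFITM1 (1.02). Several other classical members were not apart. The ubiquitin-like ISG15 (0.37, SD 0.44) read 542 on NLS-actin 2 against 545 and 655. IFIT1 (0.15), IFIT2 (-0.12) and IFIT3 (0.12), which bind viral RNA, were not apart either. HERC5 (-0.62) and IFIT5 (-0.30) were apart and lower, and the dim chemokine CXCL10 was at -1.25 without being apart. The list was therefore not displaced as a whole.

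Of 17 antigen presentation genes 11 were apart and higher (64.7 percent, against 15.5 percent of all genes), TAP2 (-0.23) was apart and lower and 5 were neither, with a median of 0.49. GBP2, an interferon-induced GTPase, read 396, 589 and 418 on the deviating arrays against 99.1 to 203 on the others (1.73, SD 0.47). The class I molecule HLA-E was 1.56 fold higher (0.65, SD 0.36) on 3 of 3 probe sets, and the immunoproteasome subunit PSMB9 1.52 fold (0.61, SD 0.21). HLA-DRA had a large difference (3.71) at signals of at most 19.9 and is not readable as a level.

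Targets of YAP and TEAD were lower in part. Of 21 measured, 7 were apart and lower (33.3 percent, against 9.2 percent of all genes), 6 of them at least 2-fold. Among genes above the median level, where 18 of the 21 lay, 14.6 percent were apart and lower. Another 2, ARHGEF17 (0.43) and AMOTL1 (0.23), were apart and higher (9.52 percent, against 15.5 percent of all genes). The median was -0.28, at -0.27, -0.06 and -0.35 in the parental, WT-actin and NLS-actin lines. It was -0.16 without NLS-actin 2 and -0.17 when the replicate number was fitted as a block. CCN1, a secreted matricellular protein, read 741 on parental 2 against 1910 and 2431, 680 on WT-actin 1 against 1672 and 2101, and 436 on NLS-actin 2 against 1366 and 1464. All 3 values lay below all 6 others, with a difference of -1.57 (SD 0.12) and 2 of 2 probe sets lower. CCN2, its close relative, read 63.7 against 185 and 341, 32.1 against 126 and 636, and 63.4 against 127 and 104 (-1.99, SD 1.14), so that its difference varied more between lines and rested on dim signals.

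The growth factor TGFB2 (-1.51, SD 0.82) was lower on 4 of 4 probe sets above the median level. The Golgi kinase-like FJX1 (-1.27, SD 0.29), the receptor tyrosine kinase AXL (-1.01, SD 0.22) and the angiomotin AMOTL2 (-0.64) were lower as well. ANKRD1 (-1.90, SD 1.24) was apart at signals of at most 22.7. The remaining 12 members, which included LATS2 (-0.17), AJUBA (-0.18), F3 (-0.28), PTPN14 (0.02) and MYOF (0.14), were not apart. The CCN2 promoter is shown because it holds several copies of GGAATG, the core of the element that TEAD factors bind. Capitals mark GGAATG on either strand (RefSeq, GRCh38.p14, chr6:131951373-131951622, minus strand, 5′ to 3′).
CCN2: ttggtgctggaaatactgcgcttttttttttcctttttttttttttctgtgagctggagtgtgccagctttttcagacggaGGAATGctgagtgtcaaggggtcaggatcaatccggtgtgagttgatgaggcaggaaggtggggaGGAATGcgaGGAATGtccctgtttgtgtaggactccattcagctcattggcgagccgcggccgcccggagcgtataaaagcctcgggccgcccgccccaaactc
It held 3 matches. GGAATG on either strand occurred in 11.9 percent of all promoters, in 4 of 17 listed promoters of the YAP and TEAD list and in 3 of the 6 whose genes were apart and lower.

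Contractile genes were lower in part. Of 19 SRF and MRTF contractile targets 8 were apart and lower (42.1 percent, against 9.2 percent of all genes). Among genes above the median level, where 14 of the 19 lay, 14.6 percent were apart and lower. Another 1 was apart and higher (5.26 percent, against 15.5 percent of all genes). Of the 19 differences 17 were negative, and the median was -0.33. Caldesmon (CALD1, -0.89, SD 0.64) was lower on 3 of 3 probe sets above the median level, but on 7 of all its 11. The SRF-binding protein SRFBP1 (-0.80), FHL2 (-0.71), the myosin heavy chain MYH9 (-0.68) and TPM4 (-0.55) were lower too. ACTA2, smooth muscle actin, was the exception at 1.80 on a dim probe set, and -0.41 as the mean of its probe sets. A CArG box, the DNA element of SRF, on either strand was found in 5 of 17 listed promoters of this list against 1.14 percent of all promoters, and in 2 of the 7 whose genes were apart and lower.

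Of 16 TGF-beta targets and matrix genes, 5 were apart and lower (31.2 percent, against 9.2 percent of all genes). Among genes above the median level, where 14 of the 16 lay, 14.6 percent were apart and lower. Another 1 was apart and higher (6.25 percent, against 15.5 percent) and 10 were neither. Their median was -0.15, which was -0.06 without parental 2 and -0.31 without WT-actin 1. Besides THBS1, the protease inhibitor SERPINE2 (-1.73) and the TGF-beta feedback gene PMEPA1 (-1.0) were lower, while the collagen-binding SPARC was higher (0.91, SD 0.08). COL1A1, given with the marker genes, was higher as well (1.08, SD 0.36), so matrix genes did not form a single direction. Among 15 matrix proteases and their inhibitors 6 were apart and higher (40 percent, against 15.5 percent) and 1 lower (6.67 percent, against 9.2 percent). Their median was 0.21, and -0.0013 without NLS-actin 2. The metalloproteinases MMP12 (2.36, dim), MMP13 (1.75) and MMP10 (1.39, dim) and the plasminogen activator PLAT (1.76) were higher, and the urokinase receptor PLAUR was lower (-1.02).

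Immediate early genes were divided. Of 24 measured, 5 were apart and lower (20.8 percent, against 9.2 percent of all genes) and 2 apart and higher (8.33 percent, against 15.5 percent), with a median of -0.16, at -0.13, -0.26 and -0.02 in the 3 lines. That median was -0.09 without WT-actin 1 or parental 3 and -0.25 without parental 1. FOSL1, an AP-1 subunit that persists in growing cells, read 1388 on parental 2 against 3052 and 4459, 1081 on WT-actin 1 against 3254 and 5400, and 494 on NLS-actin 2 against 3424 and 3223. JUN, its partner, read 426 against 1277 and 1127, 439 against 868 and 1229, and 248 against 744 and 951. For both genes the 3 deviating arrays lay below all 6 others, by -2.04 (SD 0.67) and -1.5 (SD 0.27), and JUN was lower on 4 of 4 probe sets.

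FOS and EGR1 differed from JUN. FOS, at signals of 11.9 to 46.9 on all arrays, was not apart (-0.02, SD 0.22). EGR1 read 5119 on parental 2 against 3967 and 7855, 4983 on WT-actin 1 against 7231 and 5747, and 5691 on NLS-actin 2 against 5423 and 9680, and was not apart (-0.28, SD 0.14). IER3 (-0.70), SRF itself (-0.34) and KLF4 (-0.33) were apart and lower by less, and NR4A2, a dim orphan nuclear receptor, was higher (0.99). A CArG box was present in 2 of 17 listed promoters of this list.

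Genes of MAPK feedback and ligands of the EGF receptor had the lowest median of the lists other than markers, -0.48. Of 17 such genes 8 were apart and lower (47.1 percent, against 9.2 percent of all genes). Among genes above the median level, where 14 of the 17 lay, 14.6 percent were apart and lower. None of the 17 was apart and higher, against 15.5 percent of all genes. The ligands epiregulin (EREG, -1.08, SD 0.10) and TGFA (-0.94, SD 0.38) and the feedback inhibitors SPRY4 (-0.81) and DUSP4 (-0.74, 3 of 3 probe sets) were lower. EREG read 510, 657 and 388 on the deviating arrays against 742 to 1771 on the others, and these did not overlap. Of 27 inflammation and NF-kB targets, 7 were apart and lower (25.9 percent, against 9.2 percent of all genes). Another 2 were apart and higher (7.41 percent, against 15.5 percent of all genes), and the list's median was -0.34. That median rested on few arrays: it was -0.06 without NLS-actin 1, -0.21 without WT-actin 3 and -0.16 with a block for the replicate number. TNFAIP3, the ubiquitin editor that ends NF-kB signalling, read 577 on parental 2 against 1572 and 2403, 442 on WT-actin 1 against 953 and 1976, and 291 on NLS-actin 2 against 1173 and 920. The deviating arrays lay below all 6 others, 3.34 fold lower on average (-1.74, SD 0.10), on 2 of 2 probe sets. The chemokine CCL5 (-1.43) was lower but dim. TNFAIP2 (1.15, SD 0.58) and the dim cytokine IL36G (1.08) were apart and higher, and the inhibitor NFKBIA was at 0.01.

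**Figure D4:**
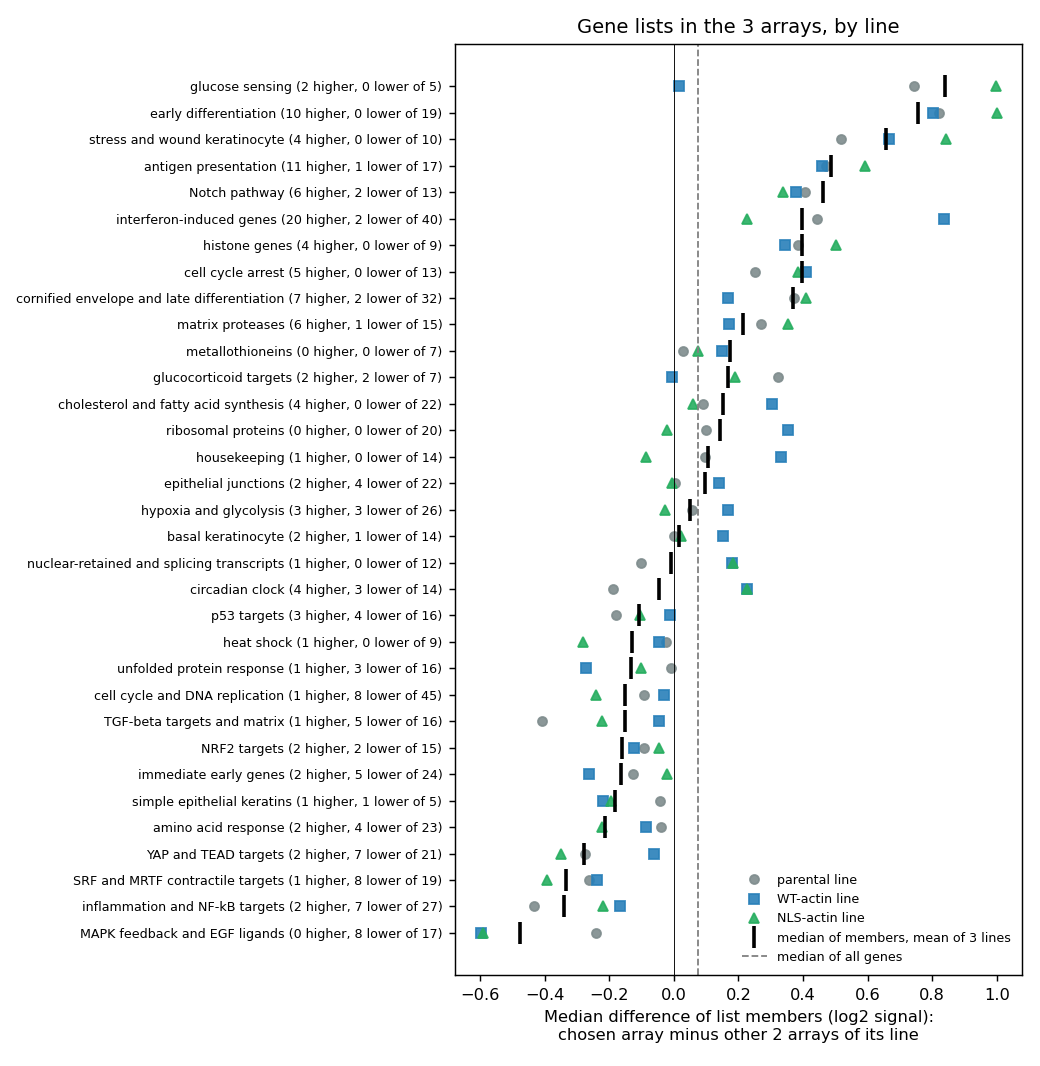
Median difference of the measured members of each list, in log2 signal, by line (circles parental, squares WT-actin, triangles NLS-actin), with the median over the mean of the 3 lines as a black bar and the median of all genes as a dashed line at 0.08; row names give the members apart. Early differentiation (0.76), antigen presentation (0.49) and interferon-induced genes (0.40) lie to the right, and YAP and TEAD targets (-0.28), NF-kB targets (-0.34) and MAPK feedback genes (-0.48) to the left.

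Most growth genes were not apart. Of 45 cell cycle and replication genes, all above the median level, 8 were apart and lower (17.8 percent, near the 14.6 percent of all genes above that level). Only 1 was apart and higher (2.22 percent, against 17.6 percent of all genes above that level). Of the 45 differences 37 were negative, and the median was -0.15, which was -0.08 without NLS-actin 2 and -0.24 without WT-actin 1. The 8 lower ones were the cyclins CCNE2 (-0.75) and CCNE1 (-0.74), the phosphatase CDC25A (-0.71), the transcription factor MYBL2 (-0.64) and the replication factors CDC6 (-0.63), MCM10 (-0.56), GINS2 (-0.42) and MCM6 (-0.40). Other replication genes such as MCM2 (-0.10), PCNA (-0.16) and MCM4 (0.14) were not apart. The proliferation marker MKI67 read 3164 on parental 2 against 3937 and 3211, 3513 on WT-actin 1 against 3862 and 2882, and 2611 on NLS-actin 2 against 3539 and 3390. It was not apart (-0.17, SD 0.24), and the mitotic genes CDK1 (-0.05), CCNB1 (-0.19) and TOP2A (0.09) were not either.

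Of 13 cell cycle arrest genes, 5 were apart and higher (38.5 percent, against 15.5 percent of all genes) and none lower, with a median of 0.40. The CDK inhibitor CDKN1A (p21) read 2067 on parental 2 against 1259 and 1222, 2988 on WT-actin 1 against 1806 and 1853, and 4146 on NLS-actin 2 against 992 and 1589 (1.06, SD 0.58). SESN3 (1.53), the cyclin CCNG2 (1.18) and CDKN2B (0.88) were higher, and BTG1 by less (0.38). CCNG2 and SESN3 are known FOXO targets that rise in quiescence. The p53 targets went both ways. Of 16, 3 were apart and higher (18.8 percent, against 15.5 percent of all genes): TP53INP1 (2.65), DDB2 (0.67) and SPATA18 (0.60). Another 4 were apart and lower (25 percent, against 9.2 percent): AEN (-1.15), PLK2 (-0.86), TIGAR (-0.62) and the dim PLK3 (-0.80). Among genes above the median level, where 15 of the 16 lay, 14.6 percent were apart and lower. PLK3 was higher as the mean of its probe sets.

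Genes of cell contacts gave no common shift. Of 22 junction genes, 2 were apart and higher (9.09 percent, against 15.5 percent of all genes), the desmosomal PKP1 (0.65) and DSG3 (0.57). The 2 probe sets of PKP1 above the median level went in opposite directions. Another 4 were apart and lower, PKP2 (-0.57), the connexins GJB2 (-0.48) and GJA1 (-0.40) and PKP3 (-0.14). That is 18.2 percent, against 9.2 percent of all genes. It is near the 14.6 percent of genes above the median level, where 21 of the 22 lay. The median was 0.10. E-cadherin (CDH1) was at 0.14, while TJP3 and CLDN8, outside the list, were among the largest positive differences. Culture density is known to act on YAP targets, growth genes and keratinocyte differentiation, but the sources give no density for any array, and its part in the state was not tested.

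TXNIP and SREBF1 led the nutrient lists. TXNIP, which is induced by glucose through MondoA and ChREBP, read 3657 on parental 2 against 1444 and 1233, 4933 on WT-actin 1 against 1460 and 2371, and 7058 on NLS-actin 2 against 2190 and 1514. All 3 deviating arrays lay above all 6 others (1.61, SD 0.30, 3 of 3 probe sets), and its relative ARRDC3 was higher as well (0.84, SD 0.14). These were the 2 of 5 glucose sensing genes that were apart (40 percent, against 15.5 percent of all genes apart and higher). SREBF1, a regulator of lipid synthesis, was 3.94 fold higher (1.98, SD 0.68), and SREBF2 (0.75), FASN (0.74) and ELOVL6 (0.32) were higher too. These were the 4 of 22 cholesterol and fatty acid genes apart and higher (18.2 percent, near the 15.5 percent of all genes). None was apart and lower, against 9.2 percent of all genes. The list's median was 0.15, and the sterol enzymes SQLE (-0.06) and HMGCS1 (-0.15) were not apart. Of 26 hypoxia and glycolysis genes, 3 were apart and higher, led by ALDOC (1.70, SD 0.09) and MXI1 (1.53). Another 3 were apart and lower, led by BNIP3 (-1.03) and HK2 (-0.57). Each is 11.5 percent, near the 15.5 and 9.2 percent of all genes. VEGFA (0.08), LDHA (0.11) and PGK1 (0.04) were not apart.

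The state was then set against control probe sets, which had no part in choosing the arrays. The ratio of 3′ to 5′ signal of ACTB, which grows when RNA is degraded or its copying falls short, was 7.96 on parental 2 against 5.0 and 6.28, 14.9 on WT-actin 1 against 6.79 and 3.82, and 12.8 on NLS-actin 2 against 6.96 and 7.98. It was above both other arrays in 3 of 3 lines, although parental 2 lay just under NLS-actin 3, with a mean log2 difference of 0.95 (SD 0.54, n = 3 lines). An exact two-sided permutation test over the 27 ways to take 1 array per line gave p = 0.037, the smallest that it can give, and p = 0.185 after adjustment over 5 measures. The ratio of 3′ to middle signal uses the same 3′ probe set as the first ratio. It differed by 0.61 for ACTB (exact permutation p = 0.037) and by 0.07 for GAPDH (exact permutation p = 0.667). Neither of these p-values was adjusted.

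The ratio of GAPDH did not follow. It was 1.40 on parental 2 against 1.60 and 1.41, 3.07 on WT-actin 1 against 1.52 and 1.39, and 1.64 on NLS-actin 2 against 1.69 and 1.95, hence raised on WT-actin 1 alone (mean log2 difference 0.28, SD 0.69, exact permutation p = 0.407, adjusted p = 0.741). The hybridization spike-ins (0.22, p = 0.444), the poly-A spike-ins (-0.19, p = 0.667, at signals of 1.29 to 3.93) and the ribosomal RNA probe sets (0.06, p = 0.815) gave no difference past the threshold of 0.05 in the same exact test. The 3 arrays thus had a higher ACTB ratio together with their gene state, and its part in that state was not tested. WT-actin and NLS-actin cells also carry an actin construct, whose part in the ACTB ratio was not tested.

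**Figure D5:**
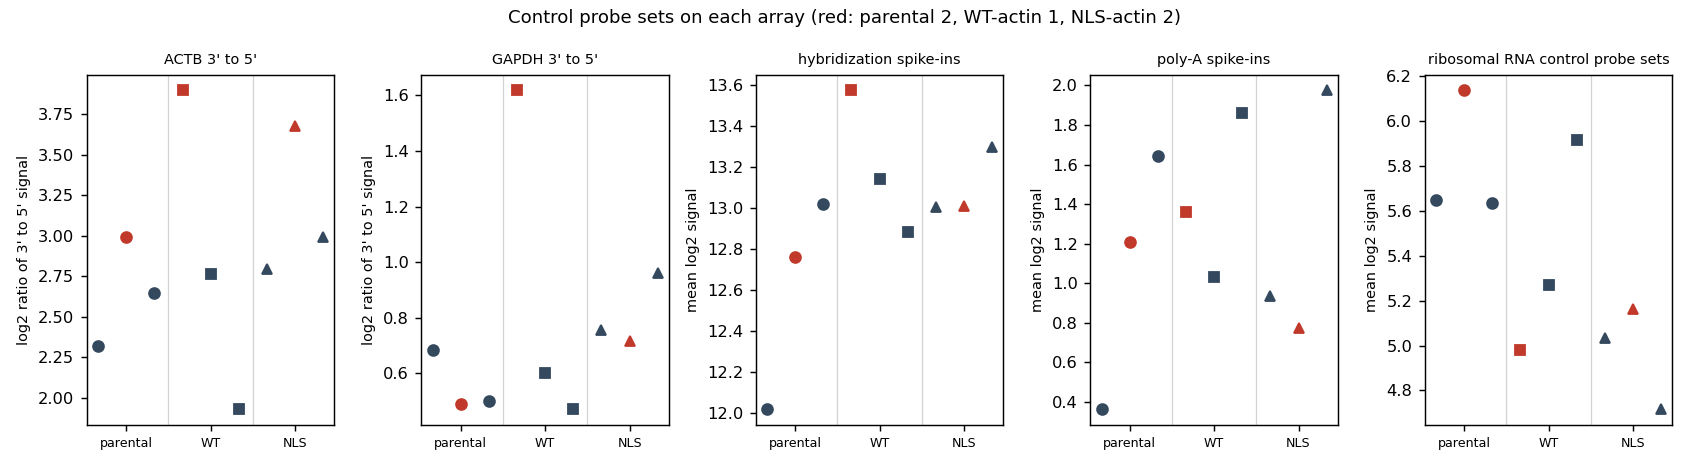
Control probe sets on each of the 9 arrays: log2 ratio of 3′ to 5′ signal for ACTB and GAPDH and mean log2 signal of hybridization spike-ins, poly-A spike-ins and ribosomal RNA probe sets, with deviating arrays in red and axes that do not start at 0. The red points are the highest of their line in 3 of 3 lines for ACTB, and in 1 of 3 lines, WT-actin, for GAPDH.

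The ratios were set beside the gene values of each line, in the order parental, WT-actin and NLS-actin. The step of the ACTB ratio was 0.51, 1.55 and 0.78 on the log2 scale, smallest on parental 2 and largest on WT-actin 1. The SD of gene differences above the median level was likewise smallest on parental 2, but largest on NLS-actin 2 (0.40, 0.523 and 0.555). The interferon median was largest on WT-actin 1 (0.44, 0.84 and 0.23) and the early differentiation median on NLS-actin 2 (0.82, 0.80 and 1.0). With 3 lines, no relation between them was tested. Of 14 housekeeping genes, all above the median level, 1 was apart and higher (SDHA, 0.22) and none lower. That is 7.14 percent higher, against 17.6 percent higher and 14.6 percent lower among genes above that level. The median was 0.11, which was -0.012 without WT-actin 1 and 0.21 without NLS-actin 2. None of 20 ribosomal protein genes, all above that level too, was apart, although all 20 differences were positive as means over lines. Their median was 0.14, and 0.026 after quantile normalization. By line it was 0.10 (parental), 0.35 (WT-actin) and -0.02 (NLS-actin). Among 12 nuclear-retained and splicing transcripts 1 was apart and higher (PNISR, 0.35), which is 8.33 percent, against 15.5 percent of all genes. None was apart and lower, against 9.2 percent, and the median was -0.01. Histone genes, whose replication-dependent transcripts lack a poly-A tail, had a median of 0.40. Of 9, 4 were apart and higher (44.4 percent, against 15.5 percent of all genes) and none lower. The 4 were H2BC21 (0.76), H2BC5 (0.51), H2AC6 (0.40) and H2BC12 (0.16).

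Because each line had 1 deviating array, differences between lines could be read within the deviating arrays, 1 against 1, and within the others, 2 against 2. For interferon-induced genes the median difference of WT-actin from parental cells was 0.24 among the deviating arrays and -0.46 among the others, so that its sign changed, whereas that of NLS-actin from parental cells was -0.49 and -0.47. For early differentiation the NLS-actin medians were 0.18 and 0.05, and for late differentiation 0.47 and 0.52. The late differentiation median of WT-actin against parental cells was -0.38 among the deviating arrays and 0.09 among the others. The YAP and TEAD list gave 0.18 and 0.17 for WT-actin and -0.03 and -0.03 for NLS-actin cells. The line differences of these lists were thus alike in both sets of arrays for YAP targets and for NLS-actin in interferon-induced and late differentiation genes, and unlike for WT-actin in the interferon and late differentiation lists. None of these differences between sets was tested.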

How the data were processed

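Affymetrix arrays, 9 in all, were hybridised with RNA of 3 HaCaT lines. Each was deposited by the authors as MAS5 signals, which are linear intensities with a common trimmed mean, and the submitters' processing notes give MAS5 no version. Values of all arrays were taken to log2 without an offset or filter. Of 54613 probe sets beside 62 controls, 41091 carried 1 symbol (41037 updated by Entrez identifier, 54 kept), 1801 several and 11721 none, which gave 19775 genes, each represented by its brightest probe set.

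The 3 arrays, the 38 gene lists (612 of 685 members measured) and the comparisons were chosen with earlier results of these data known, so gene contrasts carry no test. Control probe sets were tested by exact permutation, with Benjamini-Hochberg adjustment over 5 measures; a further control ratio is not reported here. The text names the 15 largest positive and negative differences among genes apart and above the median level, members of each list that were apart (up to 4 by size, up to 6 in the differentiation, interferon, YAP and immediate early lists), and KRT1, KRT10, IVL, TGM1, CCN1, CCN2, FOS, EGR1, MX1, ISG15, MKI67 and CDKN1A. Other members were named after their values were seen. Promoters are RefSeq sequence. No replicate term was used in the main values. Residuals of arrays of the same number had r of 0.234 to 0.791 between the parental and NLS-actin lines, the largest for the deviating pair. Parental 3 correlated more with NLS-actin 1 (0.535) than with NLS-actin 3 (0.417), and parental 1 more with NLS-actin 3 (0.334) than with NLS-actin 1 (0.234). With WT-actin, r for the same number was -0.598 to 0.515. Of the 3 deviating arrays, 2 carry number 2.

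Alternatives were quantile normalization, an offset of 8.08 (25 percentile of signals), genes above the median level only, the mean of all probe sets, omission of probe sets prone to cross-hybridization, the replicate number as a block, the ratio of 3′ to middle control signal and omission of each array. Python 3.11.15, numpy 2.4.6, pandas 2.3.3, scipy 1.17.1 and matplotlib 3.10.9 were used, and the scripts were tested on simulated data. The study's PCR, imaging and reporter experiments were left out, as they are not array data.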

Additional observations from a re-analysis of the deposited data

Results flagged for a closer look

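Some values ran in opposite directions in different lines on all arrays compared, and these differences between lines were not tested. The mean difference of members of the basal keratinocyte list was 0.11 in the WT-actin and -0.08 in the NLS-actin line, and that of the heat shock list was -0.37 in the parental and 0.18 in the WT-actin line. For p53 targets it was 0.03 (parental) and -0.01 (NLS-actin), for glucocorticoid targets -0.73 (WT-actin) and 0.12 (NLS-actin), and for housekeeping genes 0.30 (WT-actin) and -0.08 (NLS-actin). The dim melanocyte markers averaged 0.88 in the parental and -2.34 in the WT-actin line, and the dim immune cell markers -1.01 in the WT-actin and 1.66 in the NLS-actin line. ISG15 was higher on parental 2 (0.63) and WT-actin 1 (0.61) than on both other arrays of the line and lower on NLS-actin 2 (-0.14). The log2 ratio of 3′ to 5′ GAPDH signal differed by -0.10, 1.08 and -0.14 in the parental, WT-actin and NLS-actin lines. The ribosomal RNA control probe sets differed by 0.49, -0.61 and 0.29.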

How the results depend on the processing

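Of the 153 named genes that were apart, 148 kept their direction under every alternative run. The exceptions were ACTA2 (-0.41), PLK3 (0.12) and XBP1 (0.71) as the mean of all probe sets and TMT1A (-0.018) and TSC22D3 (-0.63) without probe sets prone to cross-hybridization. Above the median level the counts were 1745 apart and higher, 275 higher and 102 lower by 2-fold, and with an offset 665 and 180 were 2-fold. With each array left out the counts over all genes ranged from 3355 to 5096 higher and 1989 to 3283 lower, and from 1222 to 1875 and 405 to 822 by 2-fold. Leaving out an array asks separation in fewer lines or from fewer arrays of a line. The counts of genes apart could therefore only rise, and they do not measure stability. The early differentiation median was 0.60 with an offset, 0.97 without cross-hybridizing probe sets, 0.55 with the replicate block and 0.64 to 1.10 with each array left out; the late one was 0.19 above the median level and 0.25 with the block. The block gave 0.58 for interferon-induced genes, -0.17 for YAP and TEAD targets, -0.13 for immediate early and -0.18 for cell cycle genes, and turned no main list. With each array left out the medians were 0.24 to 0.60, -0.32 to -0.16, -0.25 to -0.09 and -0.24 to -0.08 for these lists and 0.25 to 0.42 for late differentiation, and the control measures were 0.65 to 1.17 (ACTB), -0.12 to 0.49 (GAPDH, negative without WT-actin 1), 0.05 to 0.40 (hybridization), -0.40 to 0.06 (poly-A) and -0.16 to 0.39 (ribosomal RNA). Of the 38 list medians 26 kept their sign in every alternative and 12 turned it in at least 1. Basal keratinocyte turned without parental 1 (-0.026), WT-actin 1 (-0.0095) or NLS-actin 1 (-0.0033; up to 0.050 without others). Without cross-hybridizing probe sets metallothioneins (-1.24), p53 targets (0.043), matrix proteases (-0.038) and glucocorticoid targets (-0.43) turned, and matrix proteases also without NLS-actin 2 (-0.0013; up to 0.27 without others). Hypoxia and glycolysis (-0.039) and housekeeping (-0.012) turned without WT-actin 1, the first also without parental 1 (-0.0013). Circadian clock genes turned in 5 alternatives (up to 0.066 without NLS-actin 3) and nuclear-retained transcripts in 8 (up to 0.077), both from medians near 0. Of the dim marker lists, melanocyte markers turned without WT-actin 1 (0.64) or NLS-actin 3 (0.30), immune cell markers with the replicate block (-0.48) and without NLS-actin 1 (-0.17) or NLS-actin 2 (-0.55), and endothelial markers with the block (-0.022). The cause was not tested. With 3 arrays per line, 1 of them chosen, and dim signals that reach values near 0, the size of differences in dim genes is the least certain.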

Other observations

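Clock and stress genes, not part of the comparisons above, differed in both directions on the deviating arrays. Of 14 circadian clock genes 4 were apart and higher (28.6 percent, against 15.5 percent of all genes) and 3 lower (21.4 percent, against 9.2 percent), and their median was -0.05. BMAL1, the positive limb of the clock, was higher in all 3 lines (1.03, SD 0.09), as were the repressor BHLHE41 (1.0, SD 0.62), NFIL3 (0.59) and BHLHE40 (0.49). The repressors CRY1 (-0.88) and PER2 (-0.61, SD 0.03) and NR1D2 (-0.61) were lower, and 7 members were neither. PER2 read 2840 on parental 2 against 3549 and 5028, 2177 on WT-actin 1 against 3733 and 3050, and 2955 on NLS-actin 2 against 4066 and 5122. PER2 and CRY1 thus lay opposite to BMAL1, while the repressor BHLHE41 lay on its side. The time of harvest is not given in the sources used here, and its part was not tested.

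Of 7 glucocorticoid targets, 2 were apart and higher and 2 lower (28.6 percent each, against 15.5 and 9.2 percent of all genes). The monoamine oxidase MAOA (0.66, 3 of 3 probe sets) and TSC22D3 (1.19) were higher, but TSC22D3 was lower without probe sets prone to cross-hybridization. SGK1 (-1.34, SD 0.65) and the dim ZBTB16 (-2.32) were lower. Of 23 amino acid response genes 2 were apart and higher (8.7 percent, against 15.5 percent of all genes), with DDIT4 at 0.58. Another 4 were lower, with ATF5 at -1.19 (SD 0.53), CTH at -0.64 and the dim VLDLR at -0.52. That is 17.4 percent, near the 14.6 percent of genes above the median level, where 20 of the 23 lay. Of 15 NRF2 targets AKR1B10 (1.20) and PIR (0.55) were higher (13.3 percent, against 15.5 percent of all genes). SRXN1 (-0.59) and TXNRD1 (-0.32) were lower (13.3 percent, against 9.2 percent of all genes and 14.6 percent above the median level). The 16 unfolded protein response genes all lay above the median level. HERPUD1, at 0.50, was the 1 apart and higher (6.25 percent, against 17.6 percent of genes above that level). Another 3 were lower, HYOU1 at -0.46, XBP1 at -0.39 and DNAJC3 at -0.18 (18.8 percent, near the 14.6 percent of genes above that level). XBP1 was higher as the mean of its probe sets. Of 9 heat shock genes 1, HSPB1, was apart and higher (0.81, SD 0.26), which is 11.1 percent, against 15.5 percent of all genes. None of 7 metallothioneins was apart, against 15.5 percent of all genes higher and 9.2 percent lower.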
